A study of Mus musculus with 9 samples.

Results

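The genes described here are 10 mouse genes known from the 2-cell embryo and from 2-cell-like embryonic stem (ES) cells, namely Zscan4c, Zscan4d, Zscan4f, Tcstv1, Tcstv3, Zfp352, Gm5662, Arg2, Tmem92 and Ddit4l. They were chosen by name, and a probe was counted as theirs where the RefSeq accession beside it on the array belonged to one of them. This gave 11 probes of 9 genes among the 39364 probes used, of which those named by accession cover 19723 genes, with 3 probes for Zscan4c, 1 for each of the other genes, and no probe with the accession of Zscan4d. The Zscan4 genes are near-identical tandem copies, and a probe named for one can bind RNA of another, so each probe is given by itself under the name of its accession.

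A small share of ES cells in culture passes through a transient state in which genes of the 2-cell embryo are switched on together. Zscan4 proteins, which join a SCAN domain to zinc fingers and are known for their part in telomere elongation, are its best-known markers. The state is entered through activators such as the homeobox protein Dux and the DNA-binding partners Dppa2 and Dppa4, and is held back by chromatin repressors that include the non-canonical Polycomb complex PRC1.6, of which Max, the dimerization partner of Myc and Mga, is a subunit.

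RNA of 9 samples was measured, each on its own 1-colour Agilent array. The 3 arrays of primordial germ cells (PGCs) held GFP-positive cells sorted from the genital ridges of male embryos at E13.5. Their background was MCH x C57BL6/J, with the transgene Oct4ΔPE-GFP, a germ-cell-specific reporter. The 3 Max knockdown arrays, replicates 1, 2 and 4, held VV3 cells 3 days after siRNA against Max, sorted as live, single and positive for Venus. The 3 control arrays, replicates 1 to 3, held VV3 cells 3 days after the non-silencing AllStars siRNA, sorted as live and single. VV3 is 1 male 129SV ES line whose Venus reporter is driven by the Vasa (Ddx4) promoter, so knockdown and control arrays differed in the siRNA and in the Venus gate at once and the 2 cannot be told apart. Both were grown in LIF with serum replacement and a little serum, whereas the PGCs came straight from embryos of another background. In such bulk samples a higher level can come from more cells of the 2-cell-like kind or from more RNA in each of them, and these cannot be told apart.

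Levels are log2 of the scanner's processed intensity minus the array's own 75th percentile, so 0 stands for that percentile. They compare arrays for 1 probe and not probes with each other. Between 58.2% and 67.6% of the 43020 spots on an array were well above background, no spot was saturated, replicate arrays correlated at r between 0.991 and 0.995 over probes. The Max probe had levels of 3.77, 3.65 and 3.57 in PGCs, 0.59, 0.83 and 1.13 in Max knockdown cells, and 2.84, 2.74 and 2.85 in control cells, and was 3.89-fold lower in knockdown than in control cells (limma, adjusted p = 3.12e-05). Ddx4, whose promoter defined the gate and which is therefore no independent result, was 6.22-fold higher in knockdown than in control cells (limma, adjusted p = 7.27e-06).

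The stretches just before the annotated starts of 4 members show how alike the Zscan4 copies are and how different Zfp352 is from them. RefSeq promoter sequences (GRCm38.p6) were at hand for 5 of the 10 genes, Zscan4c, Zscan4d, Zscan4f, Zfp352 and Ddit4l. Each line gives the 250 bases before the start on the gene's strand, 5′ to 3′. In the Zscan4 lines, capitals mark the TATA box letters TATAAA. In the Zfp352 line they mark a 9-base unit that recurs, which was chosen after the sequence had been seen. Zscan4c is at chr7:11005495-11005744 on the plus strand, Zscan4d at chr7:11166149-11166398 on the minus strand, Zscan4f at chr7:11397665-11397914 on the plus strand and Zfp352 at chr4:90218570-90218819 on the plus strand.
Zscan4c: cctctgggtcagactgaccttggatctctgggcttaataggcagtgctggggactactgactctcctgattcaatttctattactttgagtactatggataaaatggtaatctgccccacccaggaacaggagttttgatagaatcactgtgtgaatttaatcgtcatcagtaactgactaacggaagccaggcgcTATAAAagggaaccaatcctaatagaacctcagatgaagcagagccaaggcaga
Zscan4d: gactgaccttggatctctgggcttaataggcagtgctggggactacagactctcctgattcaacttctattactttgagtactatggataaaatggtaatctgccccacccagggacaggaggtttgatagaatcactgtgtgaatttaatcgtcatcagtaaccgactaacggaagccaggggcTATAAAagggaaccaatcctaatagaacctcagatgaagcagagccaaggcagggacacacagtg
Zscan4f: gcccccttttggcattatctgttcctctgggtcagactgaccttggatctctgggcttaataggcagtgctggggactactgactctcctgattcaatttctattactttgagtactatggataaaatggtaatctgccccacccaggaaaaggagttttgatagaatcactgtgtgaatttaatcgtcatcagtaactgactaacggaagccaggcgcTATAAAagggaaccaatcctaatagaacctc
Zfp352: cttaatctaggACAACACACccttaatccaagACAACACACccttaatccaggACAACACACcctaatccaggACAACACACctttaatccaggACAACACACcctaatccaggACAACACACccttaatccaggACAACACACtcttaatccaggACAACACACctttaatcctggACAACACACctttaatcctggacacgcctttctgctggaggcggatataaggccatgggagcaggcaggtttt
In the aligned part, Zscan4c and Zscan4f were identical at 226 of 227 bases, Zscan4c and Zscan4d at 232 of 239, and Zscan4d and Zscan4f at 209 of 216. The TATAAA of the 3 copies lies at different distances from the annotated starts, 54 to 49 bases before that of Zscan4c, 65 to 60 before that of Zscan4d and 31 to 26 before that of Zscan4f. On either strand, TATAAA is present in 12.4% of the 32817 promoters of the same length, and it was not found in those of Zfp352 or Ddit4l. The unit ACAACACAC occurs 9 times before Zfp352, and at least once in 0.219% of all promoters. None of the 5 promoters held, on either strand, an exact match to the E-box CACGTG bound by Max dimers (in 6.02% of promoters). The same was true of the half-site TCACACC of T-box factors (3.33%) and the letters TTCCCGCC bound by E2F6 (1.85%). It was also true of the fixed form of the Dux motif that was searched for (0.0305%). Only exact matches within the 250 bases were counted, so a Dux site that differs from this form or lies elsewhere was not excluded. The promoter of Ddit4l, at 65.2% G and C with 10 CpG pairs, was richer in both than those of the 3 Zscan4 copies, at 44.0% to 46.4% with 3 CpG pairs each, and than Zfp352, at 47.2% with 2, where the median over all promoters was 52.4% and 6.

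The first question is whether these genes differed between Max knockdown and control ES cells. All 11 probes were higher in Max knockdown cells, and on none did the 3 knockdown arrays overlap the 3 control arrays. Of all 25129 probes tested, 18.3% passed the same test as higher and 21.7% as lower at an adjusted p under 0.05, and 23.7% were higher with no overlap. The median difference over the member probes was 2.60 on the log2 scale, against -0.06 over all tested probes. The members fell in 2 sizes, with 9 probes between 5.18-fold and 7.97-fold higher, and Zfp352 and Ddit4l under 2-fold.

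All 4 Zscan4 probes were well above background on every control array and were higher in knockdown cells. Zscan4f (A_55_P2007986) had levels of 5.31, 4.77 and 4.96 in knockdown cells, against 2.88, 2.65 and 2.40 in control cells, a 5.18-fold difference (log2 2.37, SE 0.26; limma, adjusted p = 0.000251). The Zscan4c probe A_55_P2019533 had 4.55, 4.02 and 4.29 in knockdown cells, against 1.98, 1.59 and 1.49 in control cells (6.06-fold; log2 2.60, SE 0.47; limma, adjusted p = 0.003). A second Zscan4c probe, A_55_P2007017, had 4.31, 3.90 and 4.03 in knockdown cells, against 1.88, 1.46 and 1.29 in control cells (5.82-fold; log2 2.54, SE 0.39; limma, adjusted p = 0.00133). In each of these probes every knockdown array was above every control array by more than the spread within either group. The remaining Zscan4c probe, A_52_P363843, had 2.09, 1.72 and 1.51 in knockdown cells, against -0.58, -0.71 and -1.25 in control cells (6.14-fold; log2 2.62, SE 0.22; limma, adjusted p = 7.15e-05). The 4 Zscan4 probes thus gave differences within 0.24 of each other on the log2 scale. The SEs use 1 spread shared by all 3 groups, so on all 4 of these probes they include the scatter of PGC values at background. The same holds for the other member probes at background in PGCs. Among the 4 Zscan4 probes this scatter was widest on 2. For A_55_P2019533 the SD was 1.13 in PGCs, 0.26 in knockdown cells and 0.26 in control cells. For A_55_P2007017 it was 0.90, 0.21 and 0.31 in the same order.

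Tcstv1 and Tcstv3, neighbours on chromosome 13 whose transcripts were first described from the 2-cell stage, rose by nearly the same factor. Tcstv1 had levels of 1.81, 1.08 and 0.75 in knockdown cells, against -1.02, -1.58 and -1.95 in control cells (6.61-fold; log2 2.72, SE 0.36; limma, adjusted p = 0.000592). Tcstv3 had 1.52, 0.69 and 0.48 in knockdown cells, against -1.29, -1.96 and -2.13 in control cells (6.46-fold; log2 2.69, SE 0.29; limma, adjusted p = 0.000238). For both, knockdown replicate 1 was the highest array, and both probes varied more within a group than those of Zscan4 did, with SDs of 0.54 and 0.55 among knockdown arrays (n = 3).

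Gm5662, a protein-coding gene of chromosome 12, had levels of 4.31, 3.64 and 3.78 in knockdown cells, against 1.37, 1.11 and 0.97 in control cells (6.77-fold; log2 2.76, SE 0.27; limma, adjusted p = 0.000139). Tmem92, which encodes a transmembrane protein, had 2.66, 1.77 and 1.94 in knockdown cells, against 0.18, -0.49 and -0.68 in control cells (5.49-fold; log2 2.46, SE 0.35; limma, adjusted p = 0.000947). Arg2 encodes the mitochondrial arginase, which splits arginine into ornithine and urea. It had levels of 0.14, -0.36 and -0.71 in knockdown cells, against -2.92, -3.34 and -3.66 in control cells, at 7.97-fold the largest difference among the 11 probes (log2 3.00, SE 0.24; limma, adjusted p = 6.51e-05). It ranked 172 among the 25129 tested probes ordered from the most raised to the most lowered.

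Zfp352, a zinc finger gene of the early embryo, and Ddit4l, which encodes the inhibitor of mTORC1 signalling also called Redd2, rose less. Zfp352 had levels of 4.14, 3.73 and 3.78 in knockdown cells, against 3.33, 3.03 and 3.02 in control cells (1.69-fold; log2 0.75, SE 0.17; limma, adjusted p = 0.00878). Ddit4l had -1.62, -1.95 and -2.03 in knockdown cells, against -2.66, -2.63 and -2.74 in control cells (1.75-fold; log2 0.81, SE 0.12; limma, adjusted p = 0.00127). The knockdown arrays were above the control arrays for both. Neither call held with spike-in scaling, where the log2 differences were 0.77 for Zfp352 (adjusted p = 0.763) and 0.83 for Ddit4l (adjusted p = 0.692), or with normexp background correction on the median signals, where they were 0.36 for Zfp352 (adjusted p = 0.351) and 1.01 for Ddit4l (adjusted p = 0.176). That of Zfp352 was also lost with the replicate number as a block (log2 0.81, adjusted p = 0.054).

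**Figure D1:**
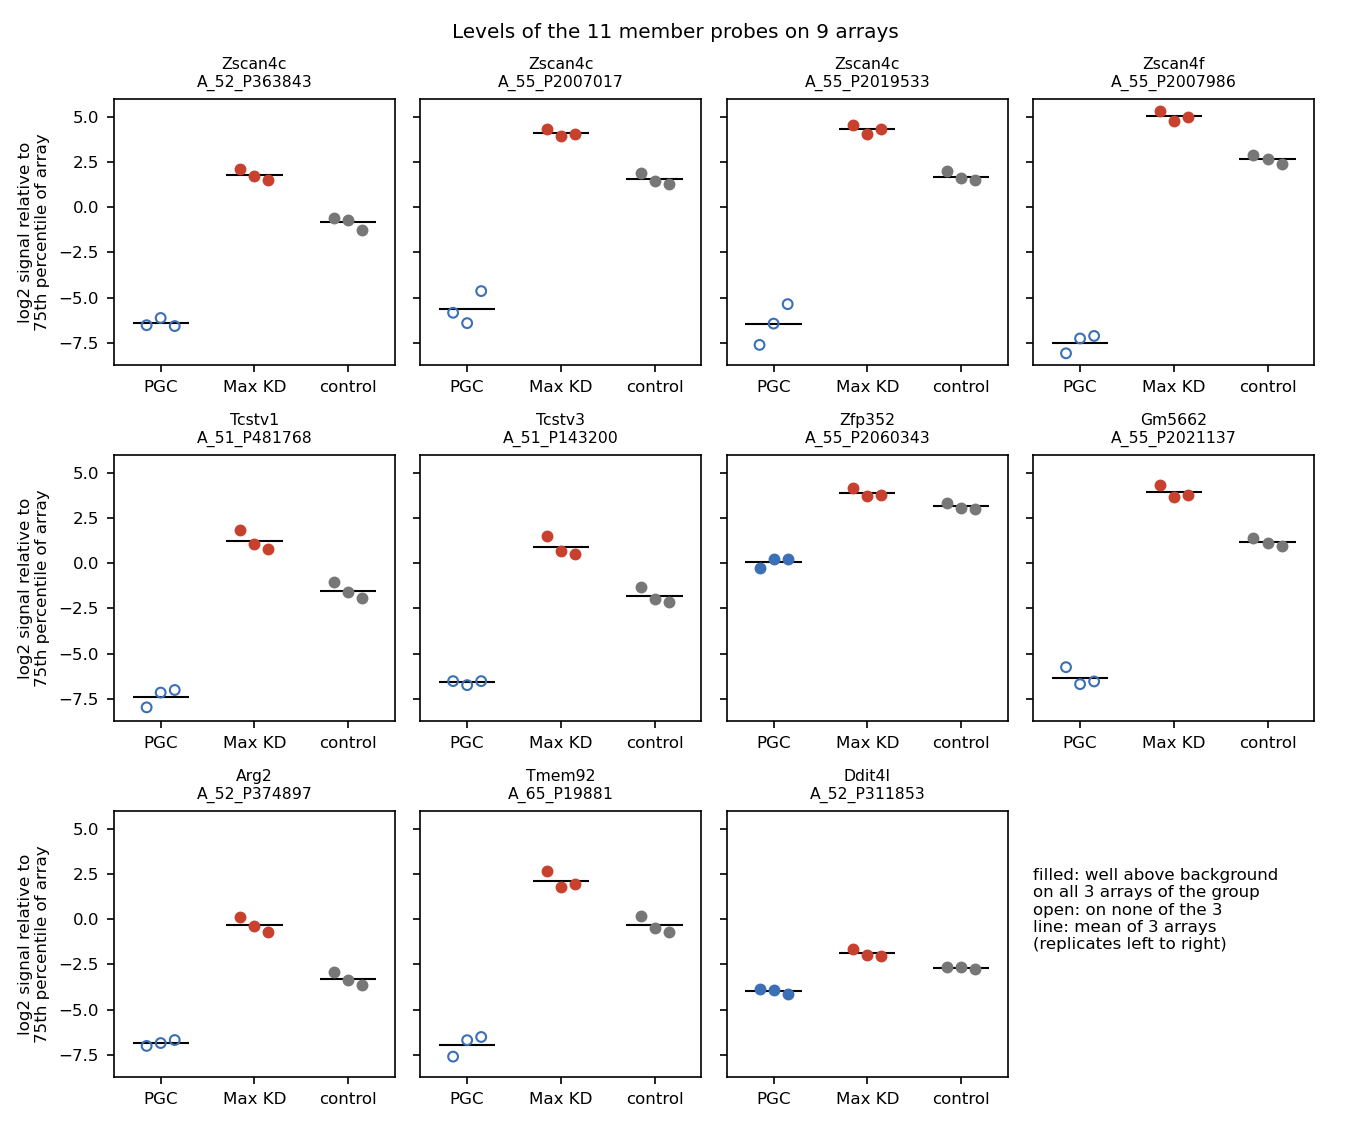
Log2 level relative to the array's 75th percentile (vertical axis) of each of the 11 member probes on the PGC, Max knockdown (KD) and control arrays, 1 point an array, with the mean of 3 arrays as a line and open points where no array of the group was well above background. Every knockdown array lies above every control array in all 11 panels, and the 9 panels with open PGC points are those of all probes but Zfp352 and Ddit4l.

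The contrast between the 2 sizes can be read within arrays, where scaling cancels. On each array the level of a probe was taken minus that of Zscan4f, and these distances were compared between knockdown and control cells for the other 10 probes. The distance of Zfp352 was -1.17, -1.04 and -1.18 in knockdown cells, against 0.46, 0.39 and 0.62 in control cells, so that it changed 3.07-fold less than Zscan4f. That of Ddit4l was -6.93, -6.73 and -6.99 in knockdown cells, against -5.53, -5.28 and -5.14 in control cells, a change 2.96-fold less. Neither set of distances overlapped between the groups, for which the two-sided exact permutation test gave p = 0.1, the smallest that 3 against 3 arrays allow (adjusted over the 10 comparisons, p = 0.167). The distance of Arg2 was higher by 0.62 in knockdown cells and that of Gm5662 by 0.39, both without overlap and with the same p. Over the remaining 6 probes, the difference in distance was between 0.08 for Tmem92 and 0.35 for Tcstv1, and 4 of these 6 overlapped between the groups.

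The member probes also varied together among replicates. Knockdown replicate 1 was the highest of its group for 11 of 11 probes, and it was so for 54.5% of the 1536 probes that rose at least 2-fold. Control replicate 1 was the highest control array for 10 of 11 member probes, against 41.4% of those 1536, and control replicate 3 the lowest for 11 of 11, against 30.5%. Since probes of near-identical copies share their RNA, these counts are not 11 independent observations. Control replicates 1 and 2 and knockdown replicates 1 and 2 were on 1 slide, and control replicate 3 and knockdown replicate 4 on another, and the part of the slide in this order was not tested. Within these slides the knockdown minus control difference of Zscan4f was 2.28 and 2.56, that of Arg2 3.02 and 2.95, that of Tcstv1 2.74 and 2.70, that of Zfp352 0.75 and 0.77, and that of Ddit4l 0.86 and 0.72.

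**Figure D2:**
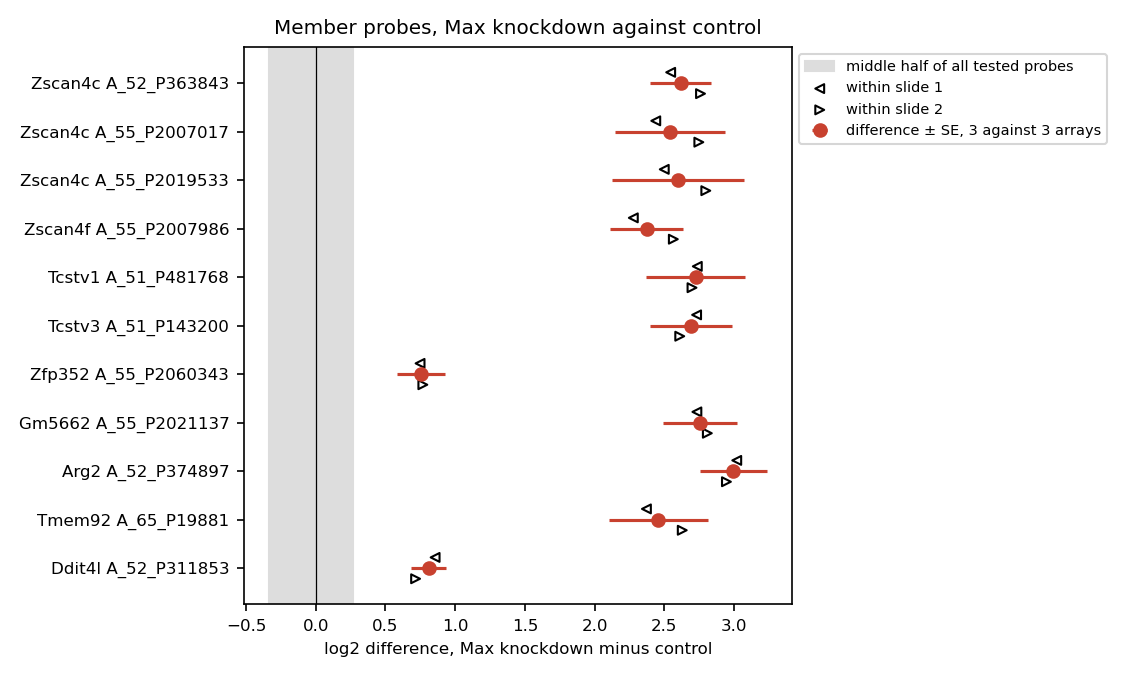
Log2 difference, Max knockdown minus control, of each member probe (points with SE, 3 against 3 arrays) beside the values within slide 1 and slide 2 (open triangles), with the middle 50% of all tested probes in grey. Both slides place 9 probes above 2 and Zfp352 and Ddit4l below 1.

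Markers of other cells also differed between these groups. The counts that follow stand beside 18.3% higher and 21.7% lower over all tested probes. The germ cell list had summed linear levels between 37.2 and 41.4 in knockdown cells and between 10.07 and 11.03 in control cells, with 5 of 9 probes higher. Sum and count include Ddx4, whose promoter defined the gate, and Dppa3, which is counted again among the activators below. The fibroblast list summed to 1.35 to 1.46 in knockdown cells and 4.02 to 6.17 in control cells, with 6 of 8 probes lower, and the ES cell list to 124 to 136 in knockdown cells and 103 to 121 in control cells, with 4 of 10 probes higher and 1 lower. Of 7 tested trophectoderm probes, 0 were higher and 3 lower, and of 12 gonadal somatic probes, 0 were higher and 2 lower. On the blood and endothelium list, 3 of 9 tested probes were higher and 0 lower. The part of these lists in the result was not tested. Of 5 oocyte markers, Bmp15, Zp1 and Zp2 were not well above background on any knockdown or control array, while Gdf9 and Zp3 were so on all of them and fell by 0.58 and 0.83 in knockdown cells (limma, adjusted p = 0.0162 for Gdf9 and 0.0227 for Zp3).

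The next question is where E13.5 PGCs stand. All 11 probes were lower in PGCs than in Max knockdown cells, and all 11 lower than in control cells, with no overlap in either comparison. Of all tested probes, 31.5% were called lower and 44.9% higher in PGCs than in knockdown cells, 32.3% were called lower and 43.4% higher than in control cells, and 32.5% and 33.3% were lower with no overlap. These 2 comparisons share the PGC arrays, and the one with control cells shares its control arrays with the knockdown comparison. On 9 of the 11 probes no PGC array was well above background. These 9 entered the test only through the ES arrays, on which they are high, so they had to be lower in PGCs and their count supports nothing by itself. With scaling on spike-in RNA, the median difference of all tested probes moved to -0.76 against knockdown cells (0.21 with the 75th percentile) and -0.77 against control cells (0.18), and the split of all calls turned to 1212 higher and 8978 lower against knockdown cells (11281 and 7917 with the 75th percentile) and to 1389 higher and 9155 lower against control cells (10899 and 8107). All 11 members stayed lower under both scalings.

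For these 9 probes only a lower bound of the fold can be given. It sets the mean of the brighter group against, on each PGC array, the higher of the probe's own signal and the dimmest signal among probes well above background. Zscan4f had values of -8.07, -7.25 and -7.11 in PGCs, all not well above background, and was at least 1159-fold lower than in knockdown cells and at least 224-fold lower than in control cells. The 3 Zscan4c probes were at least 701-fold (A_55_P2019533), 586-fold (A_55_P2007017) and 122-fold (A_52_P363843) lower in PGCs than in knockdown cells. Against control cells their bounds were 116-fold, 101-fold and 19.96-fold. These bounds grow with the brightness of the probe in ES cells and give no order among genes.

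Gm5662 was at least 538-fold lower in PGCs than in knockdown cells and at least 79.4-fold lower than in control cells. For Tmem92 the bounds were 157-fold against knockdown cells and 28.5-fold against control cells. Tcstv1 was at least 83.1-fold lower than in knockdown cells and 12.6-fold lower than in control cells, and Tcstv3 at least 66.9-fold and 10.4-fold lower than in these. Arg2 was at least 28.9-fold lower than in knockdown cells and at least 3.63-fold lower than in control cells, and the call against control cells missed the threshold with normexp on the median signals (log2 -0.85, adjusted p = 0.0523).

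The 2 probes that rose least in knockdown cells were the 2 that were measured in PGCs. Zfp352 had levels of -0.26, 0.25 and 0.21 in PGCs, well above background on all 3 arrays, and was 14.1-fold lower than in knockdown cells (log2 -3.81) and 8.34-fold lower than in control cells (log2 -3.06, SE 0.17; limma, adjusted p = 6.56e-07). Ddit4l had -3.85, -3.94 and -4.13 in PGCs, 4.30-fold lower than in knockdown cells (log2 -2.10) and 2.45-fold lower than in control cells (log2 -1.29, SE 0.12; limma, adjusted p = 1.7e-05). For Ddit4l the difference to control cells was not called with normexp on the median signals (log2 -0.52, adjusted p = 0.354). The germ cell markers summed to between 128 and 148 on the PGC arrays and the ES cell markers to between 42.2 and 50.2. The gonadal somatic list summed to 5.69 to 10.5, against 3.91 to 4.11 in knockdown cells and 4.51 to 5.03 in control cells. Of its 12 tested probes, 8 were higher and 1 lower in PGCs than in control cells, beside 43.4% and 32.3% of all tested probes. Against knockdown cells, 9 were higher and 0 lower, beside 44.9% and 31.5%. The blood and endothelium list summed to 3.65 to 5.14, against 3.15 to 4.51 and 2.54 to 3.53. Of its 9 tested probes, 4 were higher and 3 lower in PGCs than in control cells, beside 43.4% and 32.3% of all tested probes. The higher ones included Hbb-bt (at least 29.1-fold) and Hba-a1 (14.8-fold), the lower ones Tie1 (at least 2.44-fold) and Tek (at least 1.12-fold). Hbb-bt entered the test only through the PGC arrays, and Tie1 and Tek only through ES arrays, so the directions of these calls were set by the filter. The part of these markers in the result was not tested. All 3 PGC arrays were on slides of their own, so slide and PGC cannot be told apart.

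**Figure D3:**
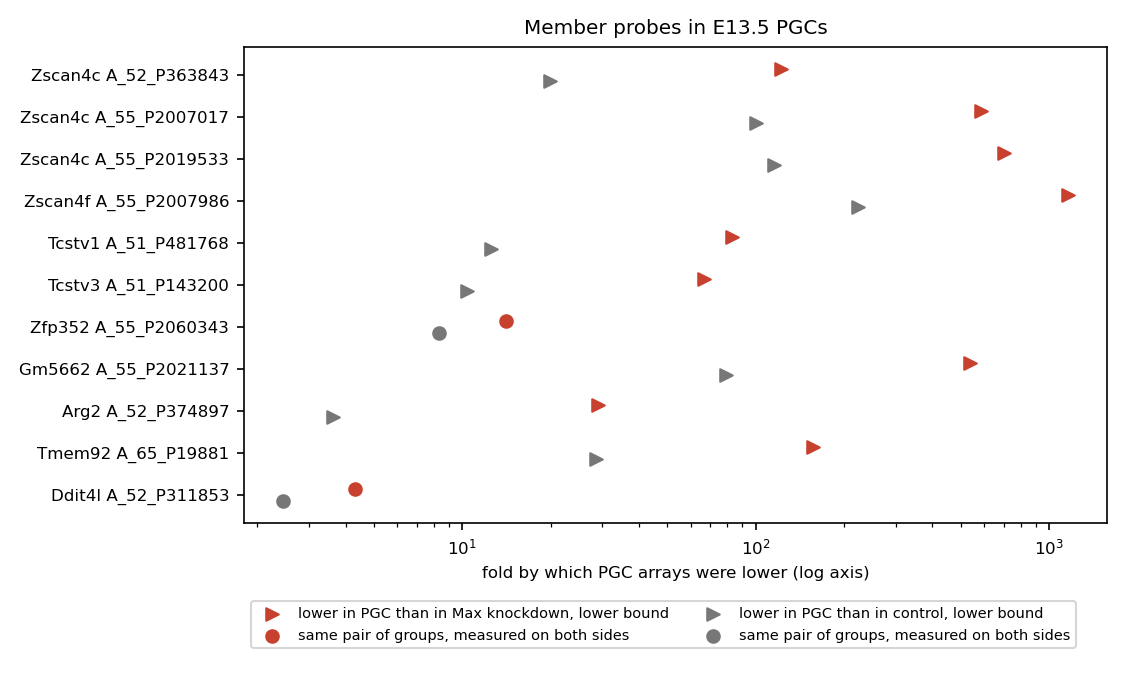
Fold by which each member probe was lower in E13.5 PGCs (log axis) than in Max knockdown cells (red) and in control cells (grey), where triangles are lower bounds for probes not well above background in PGCs and circles are measured folds. The 9 triangles of Zscan4c, Zscan4f, Tcstv1, Tcstv3, Gm5662, Arg2 and Tmem92 reach from 28.9 to 1159 against knockdown cells, and the circles are Zfp352 and Ddit4l.

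A list of 49 other genes known from the 2-cell-like state was set beside the members, of which 27 had a probe and 21 a tested one. Of 30 tested probes, 26 were higher in Max knockdown than in control cells, 0 were lower and 4 did not pass, with a median of 2.74, where 4605 of all 25129 probes were higher and 5453 lower. The 26 differences lay between 1.05 and 3.87 on the log2 scale. Among them, Tdpoz4, which had the largest, and Pramel48 were not well above background on any control or PGC array. They entered the test only through the knockdown arrays, on which they are high, so they had to be higher there. For these probes only bounds hold, at least 6.81-fold for Tdpoz4 and at least 3.27-fold for Pramel48. Gm2016 had 4 probes with differences of 2.37, 2.78, 3.16 and 3.49. Pramel24, of the Prame-like family of leucine-rich repeat proteins, had 3 with 3.06, 3.09 and 3.30, and Usp17lb, of a family of deubiquitinating enzymes, had 2.87. The smallest of the called differences was that of Rpl39l, a paralog of a large-subunit ribosomal protein, at 1.05.

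The 4 probes that did not pass were 1 each of Usp17la (0.20), Snai1 (-0.10), Sp110 (-0.05) and Eif4a3l1 (-0.02), named after their values were seen. Probes of 2 of these genes disagreed. The other Usp17la probe differed by 2.75, and the 2 other Sp110 probes by 3.17 and 2.54. In PGCs, 25 of the 30 probes were lower and 5 higher than in knockdown cells, and 23 were lower, 5 higher and 2 not called against control cells. Of the 30, 21 were not well above background on any PGC array and entered the test only through the ES arrays, so the lower calls rest largely on values at background. The 5 higher ones were in both comparisons Rpl39l and the 4 probes that had not passed. With spike-in scaling, 0 probes of the list were called higher in PGCs than in knockdown cells and 1 than in control cells, and with normexp 1 in each.

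**Figure D4:**
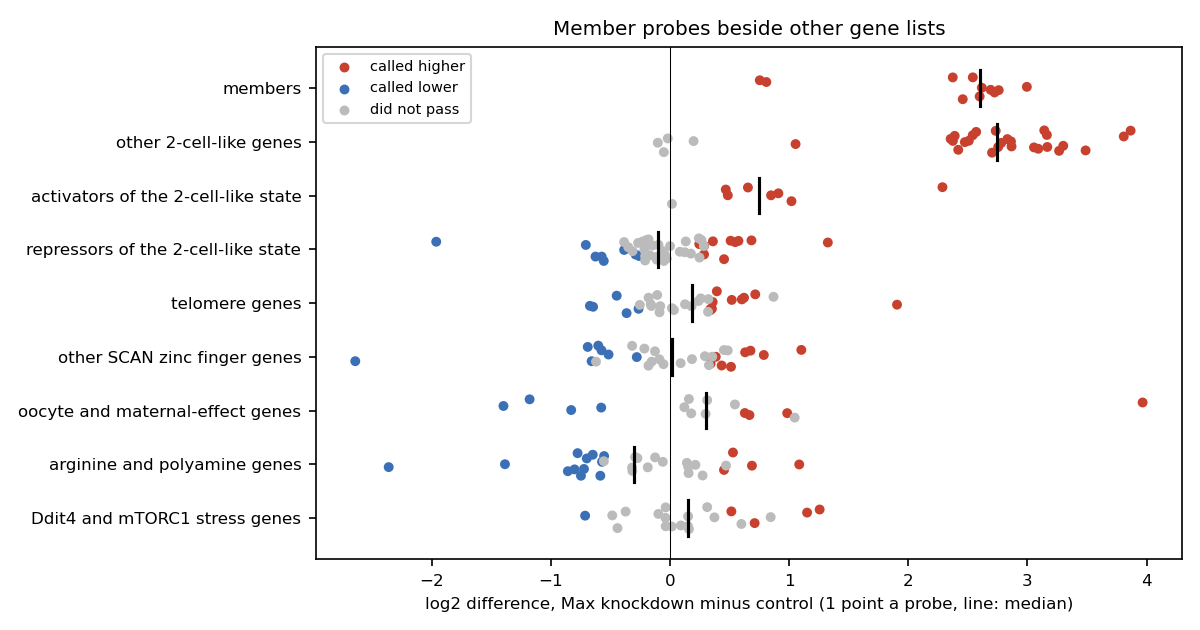
Log2 difference, Max knockdown minus control, of the members and of 8 other gene lists, 1 point a tested probe coloured by its call, with the list's median as a line. The members and the other 2-cell-like genes have medians of 2.60 and 2.74, the activators 0.75, and the remaining lists between -0.30 and 0.30.

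Among genes known as activators of the state, 7 of 8 tested probes were higher in Max knockdown cells and 0 were lower, with a median of 0.75. The 8 probes are of 5 genes, and over all tested probes 18.3% were higher and 21.7% lower. Dppa3, a maternal factor also called Stella that protects DNA methylation marks in the zygote, differed by 2.29 (SE 0.14; limma, adjusted p = 1.95e-05). The partners Dppa2 (0.91 and 1.02 on 2 probes) and Dppa4 (0.47, 0.49 and 0.65 on 3) rose less, as did Nelfa, a subunit of the negative elongation factor (0.85), and Trp53 had 0.02 and did not pass. Dux had no tested probe. With spike-in scaling 1 of the 8 probes was called higher, and with normexp 2. Against control cells, 5 of these 8 probes were higher and 3 lower in PGCs, where 43.4% of all tested probes were higher and 32.3% lower, and Dppa3 had a mean level of 4.66 in PGCs, -1.40 in knockdown cells and -3.68 in control cells.

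Of 49 probes of known repressors of the state, 10 were higher in knockdown cells, 8 lower and 31 not called, with a median of -0.10, near the shares over all tested probes (18.3% higher and 21.7% lower). After Max itself, the smallest p-values were those of Ssrp1, a subunit of the FACT histone chaperone, which was lower by 0.71 on its brighter probe, and of Myc, which was higher by 1.33. Of 31 probes on a list of telomere genes, 10 were higher, 5 lower and 16 not called (median 0.18), beside the same 18.3% and 21.7%. This list also holds the meiotic recombination genes Spo11 and Dmc1 and the transcription factor Tbx3. The Spo11 probe and every Dmc1 probe were among the 10 called higher, and Tbx3 did not pass. Spo11 was not well above background on any control array, and its rise is only bounded, at 1.11-fold or more. Tert, the catalytic subunit of telomerase, fell by 0.67 (0.16 and not called with normexp), whereas Wrap53, needed for telomerase trafficking, rose by 0.60 and Daxx, a histone H3.3 chaperone, by 0.62.

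The SCAN domain is shared with many other zinc finger genes. Of 30 tested probes of other SCAN genes, 8 were higher, 7 lower and 15 not called, with a median of 0.02, again near the 18.3% and 21.7% over all probes. Zscan18 rose by 0.79, Zscan12 fell by 0.57 and 0.66 on 2 probes, and Zscan5b was at least 2.09-fold lower in knockdown cells, where it was not well above background (log2 0.70 and not called with normexp). Among oocyte and maternal-effect genes, 4 of 15 tested probes were higher, 4 lower and 7 not called (median 0.30). Figla, an oocyte transcription factor, was at least 4.70-fold higher, Nlrp5, a component of the subcortical maternal complex, rose by 0.98, and Padi6, another of its components, fell by 1.18. Figla was not well above background on any control or PGC array. It entered the test only through the knockdown arrays, on which it is high, so its call supports nothing by itself.

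Genes that share a pathway with Arg2 or Ddit4l were counted against the same 18.3% higher and 21.7% lower of all probes. Of 30 probes of arginine and polyamine genes, 4 were higher, 12 lower and 14 not called (median -0.30). Arg1, the cytosolic arginase and paralog of Arg2, was at least 1.63-fold lower in knockdown cells (log2 0.71 and not called with normexp), and spermine synthase, Sms, fell by 0.72, 0.75 and 0.86 on 3 probes. Arg1 entered the test only through the control arrays, on which it is high, so its call supports nothing by itself. Of 21 probes of Ddit4 and mTORC1 genes, 4 were higher, 1 lower and 16 not called (median 0.15). Ddit4, the paralog of Ddit4l, had -0.44 and did not pass (limma, adjusted p = 0.0866), while Txnip, an inhibitor of thioredoxin, rose by 1.15 and 1.26, Mtor rose by 0.71, and Deptor, an inhibitor of mTOR, fell by 0.71. In each of these 6 lists, from the repressors to the mTORC1 genes, at most 1 probe was called higher and at most 1 lower with spike-in scaling, and likewise with normexp. Over all probes 838 were then higher and 336 lower with spike-in scaling and 611 and 316 with normexp, against 4605 and 5453.

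The profile of the Zscan4 probes over the 9 arrays was compared with the nearest probe of each of 14452 other named genes by the root mean square distance of centred log2 levels. The 6 nearest genes were Gm4303 (0.16), Pramel16 (0.19), Pramel39 (0.27), Pramel31 (0.29), AF067061 (0.35) and Gm2016 (0.39), with Pearson's r of 0.999 in each case over 9 arrays that fall in 3 groups, as a description. Of these, 3 belong to the Prame-like family, and they lie on chromosomes 4 and 5, whereas Zscan4 lies on 7. Their knockdown minus control differences lay between 2.34 for Pramel16 and 2.78 for Gm2016. None of these 6 genes was well above background on any PGC array, nor were the Zscan4 probes, so the distances rest in part on background values. The Zscan4 probes themselves lay 0.35 to 1.09 from their mean, Gm5662 lay at 0.48, Tmem92 at 0.59, Tcstv1 at 0.88, Tcstv3 at 1.39, Arg2 at 1.90, Zfp352 at 2.74 and Ddit4l at 3.54. Over the 6 ES arrays alone, a setting added after these values were seen, the 6 genes lay 0.13 to 0.23 from the Zscan4 profile, the Zscan4 probes 0.046 to 0.13, Gm5662, Tmem92, Tcstv1, Tcstv3 and Arg2 0.14 to 0.28, Zfp352 0.89 and Ddit4l 0.87. The 6 genes had been picked over 9 arrays that include these 6, and genes were not ranked anew. Their small distances over the ES arrays are therefore no independent result.

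The nearest genes with a probe on either side of each member, 3 a side, were added as a further set after the members' values had been seen, by their order in the RefSeq annotation. Of 42 tested probes around all members, 20 were higher in Max knockdown cells and 4 lower, beside 18.3% and 21.7% of all tested probes. The probes of Gm2016 and Gm20767 among them were already counted with the other 2-cell-like genes above. Around Tcstv1 and Tcstv3, 6 of 7 tested probes were higher, those of AF067063 (2.67), B020031M17Rik (2.30), Gm20767 (2.83), AF067061 (2.75 and 2.80) and BC147527 (2.79), while Zfp131 at the edge had -0.01. Around Gm5662, 7 of 9 were higher, including the 4 of Gm2016 and those of Gm5039 (2.77 and 3.05), and Adck1 beyond them had -0.11. Around Tmem92, Gm11543 (2.32) and Gm11545 (1.66) on either side were higher, and Col1a1, the next gene with a probe, was lower by 1.13. These groups hold related copies, so their probes may share RNA.

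Of the 6 neighbours of Arg2, only Pigh, of GPI-anchor synthesis, rose (0.78), Rdh11, a retinol dehydrogenase, fell by 1.61, and 4 were not called. Around Zfp352, Tusc1 (0.55) and 1 of 2 Cdkn2a probes (0.39) rose, and both probes of Cdkn2b, a cell cycle inhibitor, fell by 1.37 and 0.86 (0.63 and 0.14 with normexp, not called). Around Ddit4l, 2 of 3 Lamtor3 probes rose by 0.36 and 0.29 (-0.051 and -0.10 with normexp, not called) and no other passed. Around the Zscan4 copies on chromosome 7, 5 of the 6 neighbours had no probe bright enough to be tested, and Vmn1r70, a vomeronasal receptor gene, had 0.09 and did not pass.

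**Figure D5:**
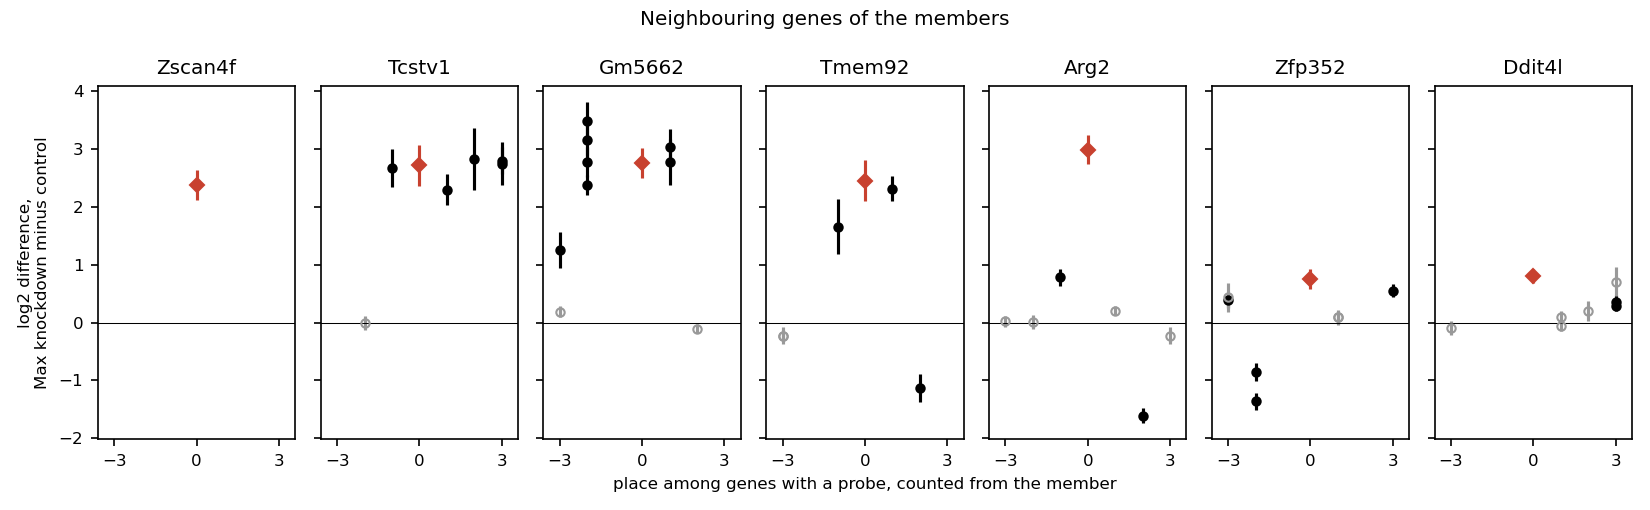
Log2 difference, Max knockdown minus control, with SE, of tested probes of genes up to 3 places before and after a member (horizontal axis, in genes with a probe), with the member as a red diamond, called probes filled and others open. Called higher neighbours of Tcstv1, Gm5662 and Tmem92 lie between 1.26 and 3.49, those of Arg2, Zfp352 and Ddit4l at 0.78 or less, and Zscan4f has no tested neighbour.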

How the data were processed

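Per the file headers, the authors' scanner files came from Feature Extraction 10.7.3.1, and the deposited intensity per spot is background-subtracted and detrended. The deposited table of log2 values, centred per probe, served as an alternative. It followed the scanner values (r at least 0.99994 on every array after the same centring), with its scaling not stated in the sources used here.

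Control spots and 65 probes with an outlier flag were left out of the tests, spots of a probe were averaged, and log2 intensity minus the array's 75th percentile was fitted with limma 3.58.1 in R 4.3.3 as 3 group means over 9 arrays. The 25129 probes that every array of 1 or more groups measured well above background were tested, with Benjamini-Hochberg adjustment over them and a threshold of 0.05. A RefSeq accession named 26012 of 39364 probes through an annotation of GRCm38.p6, whereas the array design follows mm9. Precision is limited by 3 arrays a group, and the study states that the replicates are biological. The members and lists were chosen with earlier results of these data known, so no list was tested as a set. Named genes are all member probes, Max and Ddx4, from each list those with the 3 smallest p-values between knockdown and control cells (all where 4 or fewer were tested), and the 6 nearest profiles. One gene that this rule names is not reported here. Other genes were named after their values were seen. The code was tested on simulated data. Alternatives were quantile and spike-in scaling, normexp, other filters and fits, slide and replicate blocks, and leaving out each array.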

Additional observations from a re-analysis of the deposited data

How the results depend on the processing

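The count of called member probes was 11 of 11 in each of the 3 comparisons and stayed within 1.5 times of it under every alternative but one: with a filter for probes well above background on all 9 arrays, 2 probes were left (Zfp352 and Ddit4l) and all 2 were called. Leaving out each array in turn gave 11 called probes at the lowest and 11 at the highest in all 3 comparisons. Over single probes and alternatives, 182 of 187 checks kept direction and call for knockdown against control cells, 187 of 187 for PGCs against knockdown cells and 185 of 187 for PGCs against control cells, and 0 reversed. The 7 lost calls, of Zfp352, Ddit4l and Arg2, stand beside their values above. Replicate numbers are shared by 2 knockdown and control arrays each, whose deviations correlated at 0.363 and 0.395 (between -0.03 and 0.019 for PGC and control arrays), and were not used as pairs; knockdown replicate 4 and control replicate 3, which share a slide but no number, correlated at 0.503. With the slide as a block, 5280 probes were called higher and 6537 lower in knockdown cells. With the number as a replicate block, 3518 probes were called higher and 3944 lower in knockdown cells, against 4605 and 5453, and Zfp352 (0.81, adjusted p = 0.054) was the member that was lost. Among other named probes, the difference between knockdown and control cells reversed under normexp on the median signals for Arg1 (0.71), Cdkn2b (0.63 and 0.14), Lamtor3 (-0.051 and -0.10), Ssrp1 (1.18 on its dimmer probe), Tert (0.16) and Zscan5b (0.70), none with a call; the cause was not tested. Over all probes, spike-in scaling called 838 higher and 336 lower and normexp 611 and 316 in knockdown against control cells; normexp called 4352 and 3947 in PGCs against knockdown cells and 3524 and 3489 against control cells, and spike-in scaling 1212 and 1389 higher. A further normexp setting, chosen after seeing the data, left out 14 spots with a background brighter than the spot and called 4088 probes higher and 4261 lower. With 3 arrays a group, single arrays were not checked as outliers. Dim probes in PGCs limit 9 members to bounds.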
